A study of Mus musculus with 8 samples.

Results

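The genes of iron transport and storage were followed on 8 mouse expression arrays of embryonic liver progenitors. The list holds 10 genes, Trf, Tfrc, Tfr2, Hamp, Slc40a1, Slc11a2, Fth1, Ftl1, Cp and Hfe, taken by name. Of these, 8 had at least 1 probe set annotated to a single gene symbol, with 28 such probe sets among them, out of 18193 genes and 34958 single-symbol probe sets on the array. Trf and Ftl1 were reached only by probe sets annotated to several genes and are given apart from the rest.

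The arrays compared 4 samples labelled Bmi1, from cells transduced with Bmi1, with 4 samples labelled control, from cells carrying EGFP. Both groups were Dlk-positive hepatoblasts, the common precursors of hepatocytes and bile duct cells, from Ink4a-Arf-null livers at embryonic day 14.5, so the Ink4a-Arf deletion is shared by the controls. The cells were grown on collagen IV in the presence of the growth factors HGF (50 ng/ml) and EGF (20 ng/ml), and were purified by flow cytometry on day 28 of culture. The arrays carry replicate numbers 1 to 4 in each group, and the series describes 4 independent experiments. The sources used here name neither the vector nor the promoter that drove Bmi1.

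Liver cells take up iron bound to transferrin (Trf) through its receptors Tfrc and Tfr2, move it across membranes with Slc11a2, store it in ferritin, a shell of heavy (Fth1) and light (Ftl1) chains, and release it through ferroportin (Slc40a1). Ceruloplasmin (Cp) oxidises the released iron so that transferrin can bind it. Hepatocytes also make hepcidin (Hamp), the hormone that removes ferroportin from cell surfaces, and set its level with the sensors Hfe and Tfr2 and with BMP signalling through the coreceptor hemojuvelin (Hjv). Tfrc and ferritin are known to be controlled in opposite directions by the iron regulatory proteins, largely through RNA stability and translation, the second of which arrays do not measure.

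All 10 hepatoblast markers examined, among them Alb, Afp, Dlk1 and Hnf4a, were above background on all 8 arrays. Of 16 macrophage markers 3 (Cd163, Timd4 and C1qa) were at background on all 8 arrays, and the summed signal of the list was 271 to 538 in arrays labelled Bmi1 and 313 to 831 in arrays labelled control. The 3 macrophage markers tested, Adgre1, Cd68 and Csf1r, all had a lower mean in arrays labelled Bmi1 (median log2 difference -0.45). Adgre1 and Csf1r were highest in control 2 and Cd68 in control 4. Of 11 erythroid markers measured, Hemgn and Hbb-y were at background throughout, with sums of 90.0 to 148 in arrays labelled Bmi1 and 75.0 to 147 in arrays labelled control. The 1 tested, Epor, read 69.0 ± 19.5 in arrays labelled Bmi1 and 33.3 ± 17.4 in arrays labelled control (SD, n = 4 each). The untested erythroid markers were dimmer in mean and differed in both directions. Endothelial markers summed to 311 to 415 in arrays labelled Bmi1 and 167 to 296 in arrays labelled control, with 3 of 12 (Pecam1, Tek and Tie1) at background. Without Egfl7 the endothelial sums overlapped, at 74.6 to 128 in arrays labelled Bmi1 and 83.4 to 154 in arrays labelled control. Fibroblast and stellate markers summed to 1256 to 5017 in arrays labelled Bmi1 and 1872 to 12305 in arrays labelled control, with Lrat at background. Of the 11 that were tested, 10 had a lower mean in arrays labelled Bmi1 (median log2 difference -0.98). Some were far higher in control 1 than in the other controls. Col1a1 read 538 in control 1, against 136, 29.6 and 9.70 in controls 2 to 4. In pair 4 Col1a1 was higher in the array labelled Bmi1 (26.2 against 9.70), while Acta2 was lower (444 against 1249). In limma 0 of the tested markers passed without a block. With the replicate number as a block, under which 3.33% of all tested genes passed, Epcam of the hepatoblast list, Egfl7 of the endothelial list and Reln of the fibroblast list rose, and Acta2 of the fibroblast list fell. The part of these cells in the iron gene values was not tested. In RNA pooled from many cells, fewer cells of a type and less RNA per cell cannot be told apart.

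The signal of Bmi1 itself ran against the labels. It was 279 ± 60.0 in arrays labelled Bmi1 and 518 ± 218 in arrays labelled control (SD, n = 4 each) at its brighter probe set, so groups are named here as labelled. Whether the Bmi1 probe sets read the introduced Bmi1 was not tested. A spiked-in control, BioC 3', split the arrays by replicate number, with a signal of 198 to 274 in replicates 1 and 2 and 97.0 to 119 in replicates 3 and 4, in both groups. Control 1 had a Gapdh 3'/5' ratio of 3.10, against 1.65 to 1.96 on the other 7 arrays.

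None of the 8 measured iron genes changed significantly between the groups. With limma across 10916 tested genes, 0 of the 8 passed an adjusted p of 0.05, while 18 genes passed in all (0.165%). An unadjusted p under 0.05 was reached by 2 of the 8, Tfr2 and Tfrc, and by 853 of all tested genes. With the replicate number as a block (blocked), which pairs arrays of the same number, 0 passed again, while 363 of all tested genes passed (3.33%). Of the 8, 5 had an unadjusted blocked p under 0.05 (Tfr2, Slc40a1, Hamp, Tfrc and Fth1), as did 1966 of all tested genes. Of the 8 genes, 7 had a lower mean in arrays labelled Bmi1 and only Tfrc a higher one. A lower mean was seen for 5928 of all 10916 tested genes. With arrays centred on all probe sets, Slc11a2 joined Tfrc, at 0.013. The median log2 difference of the 8 genes was -0.30, and that of all tested genes was -0.03. With arrays centred on all probe sets these medians were -0.16 and 0.11. Tested singly, 0 of 25 probe sets of these genes passed, where 5 of 20967 probe sets did (0.0238%). With the block 0 of 25 passed as well, where 2.01% of all tested probe sets passed.

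**Figure D1:**
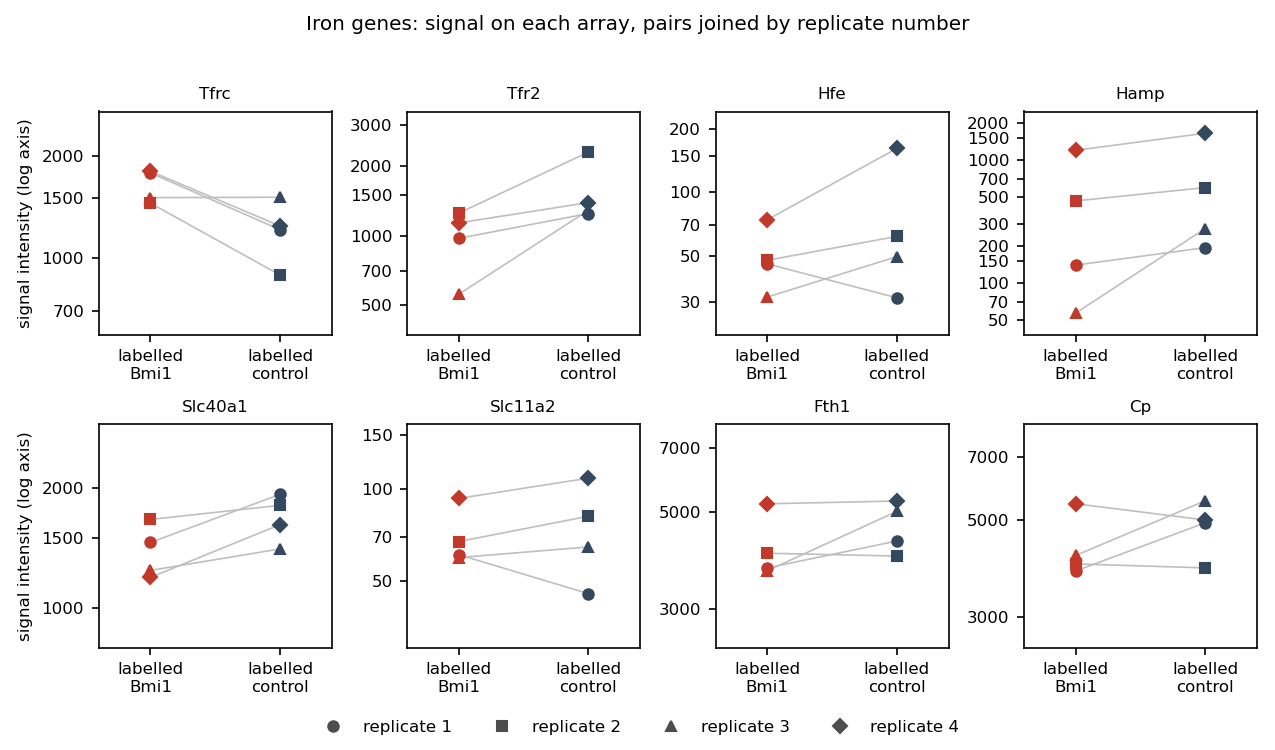
Signal intensity (log axis) of the 8 iron genes on each array, at the brightest single-symbol probe set of each gene. Symbols mark the replicate number and grey lines join arrays of the same number; Tfr2, Hamp and Slc40a1 are lower in the Bmi1-labelled array of 4 of 4 pairs, and Hamp spans 57.3 to 1639.

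Hamp was the most variable of the 8 genes. Its brighter probe set read 140.1, 464, 57.3 and 1192 in Bmi1 1 to 4, against 194, 595, 277 and 1639 in control 1 to 4. Replicate 4 was highest in both groups, replicate 2 came next in both, and the group ranges overlapped almost entirely. The highest signal was 28.6 times the lowest, a ratio reached by 1.21% of tested genes. Of the sum of squares of Hamp over the 8 arrays, 83.0% lay between replicate numbers and 10.1% between groups, against medians of 65.4% and 8.45% over all tested genes.

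Hamp was lower in the Bmi1-labelled array of 4 of 4 pairs, by 0.56, 0.44, 2.29 and 0.49 on the log2 scale (pair 3 differing most). Its mean was 463 ± 517 in arrays labelled Bmi1 and 676 ± 665 in arrays labelled control (SD, n = 4 each), a log2 difference of -0.94 with a 95% interval from -2.998 to 1.11 (limma adjusted p = 0.943). In the blocked model the interval ran from -1.63 to -0.25, with a limma adjusted p of 0.149. The size moved with single arrays: it was -0.22 without Bmi1 3, -0.38 without control 4 and -1.66 without Bmi1 4. Without pair 3 in the blocked model it was -0.49. The other Hamp probe set is of the array's _x_at class, which may read related transcripts, and followed the same order, from 44.0 in Bmi1 3 to 1248 in control 4, and differed by -1.01. Mice carry a close copy, Hamp2, and whether these probes separate the copies was not tested.

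The promoter of Hamp is shown because Hamp is known to respond to BMP signalling, which needs the coreceptor Hjv described further on, and to inflammatory STAT signalling. The 250 bases before the RefSeq start site lie on the minus strand at chr7:30944030-30944279 (GRCm38.p6), printed 5′ to 3′ along the gene with matches to the searched motifs in capitals.
Hamp: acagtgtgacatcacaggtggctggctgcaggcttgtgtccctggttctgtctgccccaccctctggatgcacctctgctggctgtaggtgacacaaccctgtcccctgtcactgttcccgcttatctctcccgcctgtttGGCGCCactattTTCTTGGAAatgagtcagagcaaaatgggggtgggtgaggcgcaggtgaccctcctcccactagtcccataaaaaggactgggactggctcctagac
The first capital run is the BMP response element GGCGCC, at positions -109 to -104 from the start site. The second is the STAT motif TTCNNNGAA, at positions -97 to -89, with no overlap. Of 32851 RefSeq promoter windows of this length, 9.59% held GGCGCC, 7.02% held the STAT motif and 0.368% held both.

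The search covered both strands and included the E-box CACGTG (6.02% of windows), the antioxidant response element TGACNNNGC (10.2%) and the C/EBP motif TTGCNNAA (9.56%). Windows were found for 7 of the 10 genes, 12 in all. Tfrc held GGCGCC at -89 to -84 in 1 of its windows. Hfe held the antioxidant element at -67 to -59, and Cp and Fth1 each held the C/EBP motif in 1 window. A match describes letters only, and no factor's binding was measured.

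The receptor genes differed in opposite directions. Tfr2, the receptor by which hepatocytes sense iron-loaded transferrin, read 972, 1251, 557 and 1134 in Bmi1 1 to 4, against 1246, 2299.8, 1286 and 1389.8 in control 1 to 4. As deposited, Bmi1 2 lay just above control 1. After each array was centred on the median of the tested genes the groups no longer overlapped, as was the case, lower in arrays labelled Bmi1, for 2.91% of tested genes. Its log2 difference was -0.76 (SE 0.29, 95% interval -1.41 to -0.10), lower in 4 of 4 pairs. Unblocked the limma adjusted p was 0.525, and blocked it was 0.0515, the smallest of the 8 genes in both models. Control 2 lay far above the other controls, and without it the difference was -0.54 (limma adjusted p = 0.919). Without Bmi1 3, the lowest array, it was -0.49 (limma adjusted p = 0.967).

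The dimmer Tfr2 probe set did not repeat the separation of the groups. It read 254, 323, 249 and 466 in Bmi1 1 to 4, against 175, 419, 477 and 528 in control 1 to 4. Pair 1 was higher in the array labelled Bmi1 and the other 3 pairs were lower, with a log2 difference of -0.31. The brighter probe set is of the _x_at class, like the second of Hamp. Of the other 10915 tested genes, those whose level over the 8 arrays was most like that of Tfr2 were Hoga1 (Pearson r = 0.979), Sec22a (0.975) and Proz (0.968), over arrays that share replicate numbers.

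Tfrc, the receptor through which most cells take up transferrin, was the only one of the 8 genes with a higher mean in arrays labelled Bmi1. It read 1782, 1452, 1508 and 1802 in Bmi1 1 to 4, against 1213, 892, 1512 and 1244 in control 1 to 4. Control 3 lay within the range of the arrays labelled Bmi1 and the other 3 controls lay below all of them. The log2 difference was 0.37 (SE 0.17, 95% interval 0.0015 to 0.74; limma adjusted p = 0.635 unblocked and 0.175 blocked). Pair 3 was slightly lower in the array labelled Bmi1, by 0.09, and the other 3 pairs were higher by 0.46 to 0.62. Without control 2 the difference was 0.24.

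The 5 dimmer Tfrc probe sets, 3 of them control probe sets of the array named TransRecMur, read between 1.76 and 43.8. Of the 6 probe sets 5 had a higher mean in arrays labelled Bmi1. The single exception, the middle-region control probe set, read 7.84 ± 1.95 in arrays labelled Bmi1 and 9.87 ± 3.83 in arrays labelled control (SD, n = 4 each), with 2 and 1 arrays at background. Erythroid cells are known for very high Tfrc. Their marker sums overlapped between the groups. Epor, the 1 erythroid marker tested, differed in the same direction as Tfrc, by 0.98 on the log2 scale. The dimmer erythroid markers went both ways. Lower in arrays labelled Bmi1 were Tal1 (-1.69), Rhag (-0.73), Hba-x (-0.63), Epb42 (-0.54), Gata1 (-0.34), Nfe2 (-0.14) and Hbb-y (-0.05). Higher were Slc4a1 (0.49), Hemgn (0.13) and Klf1 (0.06). The part of erythroid cells in the Tfrc values was not tested.

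Hfe, an MHC-like protein that binds the receptors and signals iron status, was dim. It read 45.7, 47.5, 31.7 and 74.2 in Bmi1 1 to 4, against 31.5, 61.7, 49.4 and 162 in control 1 to 4. The groups overlapped, and control 4 alone exceeded every array labelled Bmi1. The log2 difference was -0.46 (95% interval -1.42 to 0.51; limma adjusted p = 0.943 unblocked and 0.396 blocked). Without control 4 it was -0.05, and without control 1 it was -0.74. The second Hfe probe set differed by -0.76 and was lower in 4 of 4 pairs (limma adjusted p = 0.873 unblocked and 0.174 blocked).

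Slc40a1, the only known iron exporter of vertebrate cells and the target of hepcidin, was lower in the Bmi1-labelled array of 4 of 4 pairs, by 0.20 to 0.50 on the log2 scale. It read 1461, 1669, 1243 and 1194 in Bmi1 1 to 4, against 1929.6, 1811, 1408 and 1619.7 in control 1 to 4. The ranges overlapped, because Bmi1 2 lay above controls 3 and 4 and Bmi1 1 above control 3. The log2 difference was -0.36 (SE 0.17, 95% interval -0.74 to 0.03; limma adjusted p = 0.719). Blocked, the interval was -0.57 to -0.15, with a limma adjusted p of 0.0818. The dimmer probe set differed by -0.41, with 3 of 4 pairs clearly lower and pair 1 almost equal. Macrophages are also known for high Slc40a1. Their marker sums overlapped between the groups, while 3 of 3 tested macrophage markers had a lower mean in arrays labelled Bmi1, the direction of Slc40a1. Their part in the Slc40a1 values was not tested.

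Slc11a2, which carries ferrous iron into the cytosol, did not separate the groups at any of its 4 probe sets. The brightest read 61.1, 67.5, 59.8 and 93.3 in Bmi1 1 to 4, against 45.6, 81.6, 64.8 and 109 in control 1 to 4. The arrays labelled Bmi1 lay inside the control range. The log2 difference was -0.12 (95% interval -0.70 to 0.46; limma adjusted p = 0.985), and over the 4 probe sets it ran from -0.15 to 0.04. Its direction was not fixed: it turned to 0.013 with arrays centred on all probe sets and to 0.046 without control 4.

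Fth1, the ferritin chain that oxidises iron for storage, varied little between arrays. Its brighter probe set read 3727, 4026, 3670.0 and 5227 in Bmi1 1 to 4, against 4293, 3966, 5021 and 5304 in control 1 to 4. Replicate 4 was highest in both groups and the ranges overlapped, with a ratio of highest to lowest of 1.45 that 89.6% of tested genes reached or exceeded. After centring, it was lower in the Bmi1-labelled array of 4 of 4 pairs, with a log2 difference of -0.24 (95% interval -0.52 to 0.05; limma adjusted p = 0.771 unblocked and 0.2502 blocked). The second probe set differed by -0.29 and was lower in 3 of 4 pairs. The highest signals on the arrays were 4525 to 7348, so Fth1 lies near the top of the scale, and whether it was saturated was not tested. Fth1 has many processed copies in the genome, and its probe sets may read them.

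Ftl1, the light chain of ferritin, shared its 3 probe sets with the annotated copy Ftl1-ps2. The probe set of these with the highest signal read 1842, 1949, 1968 and 2118 in Bmi1 1 to 4, against 1807, 2099, 2432 and 2744 in control 1 to 4. It was lower in 4 of 4 pairs after centring, with a log2 difference of -0.26. The probe set shared by Trf and Srprb, a subunit of the signal recognition particle receptor, read 3094 to 5288 in arrays labelled Bmi1 and 3148 to 5395 in arrays labelled control, a log2 difference of -0.18. These values cannot be assigned to either gene of a pair and were not tested. The probe set of Trf and Srprb also lies near the top of the scale, and whether it was saturated was not tested.

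Cp had 8 probe sets, and they did not point the same way. The brightest read 3824, 3971, 4152 and 5459 in Bmi1 1 to 4, against 4935, 3887, 5547 and 5010.5 in control 1 to 4. The ranges overlapped, 3 of 4 pairs were lower, and the log2 difference was -0.23 (95% interval -0.53 to 0.07; limma adjusted p = 0.8101 unblocked and 0.332 blocked). With the probe sets of the gene averaged, the difference was 0.0066. The brightest Cp probe set, like that of Fth1, lies near the top of the scale, and whether it was saturated was not tested.

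In all, 5 Cp probe sets had a lower mean in arrays labelled Bmi1 and 3 a higher one. The largest positive difference was at a dimmer probe set that read 782, 659, 181 and 210.4 in Bmi1 1 to 4, against 406, 234, 191 and 158 in control 1 to 4. It was high in Bmi1 1 and 2 above all, and the groups overlapped through replicates 3 and 4. Its log2 difference was 0.61 (limma adjusted p = 0.9997 unblocked and 0.246 blocked). Another dim probe set read 337, 349.9, 76.7 and 88.3 in Bmi1 1 to 4, against 295, 98.3, 79.8 and 71.8 in control 1 to 4, a log2 difference of 0.48. Cp is known to give a secreted and a membrane-anchored form by splicing, and which form each probe set reads was not tested.

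**Figure D2:**
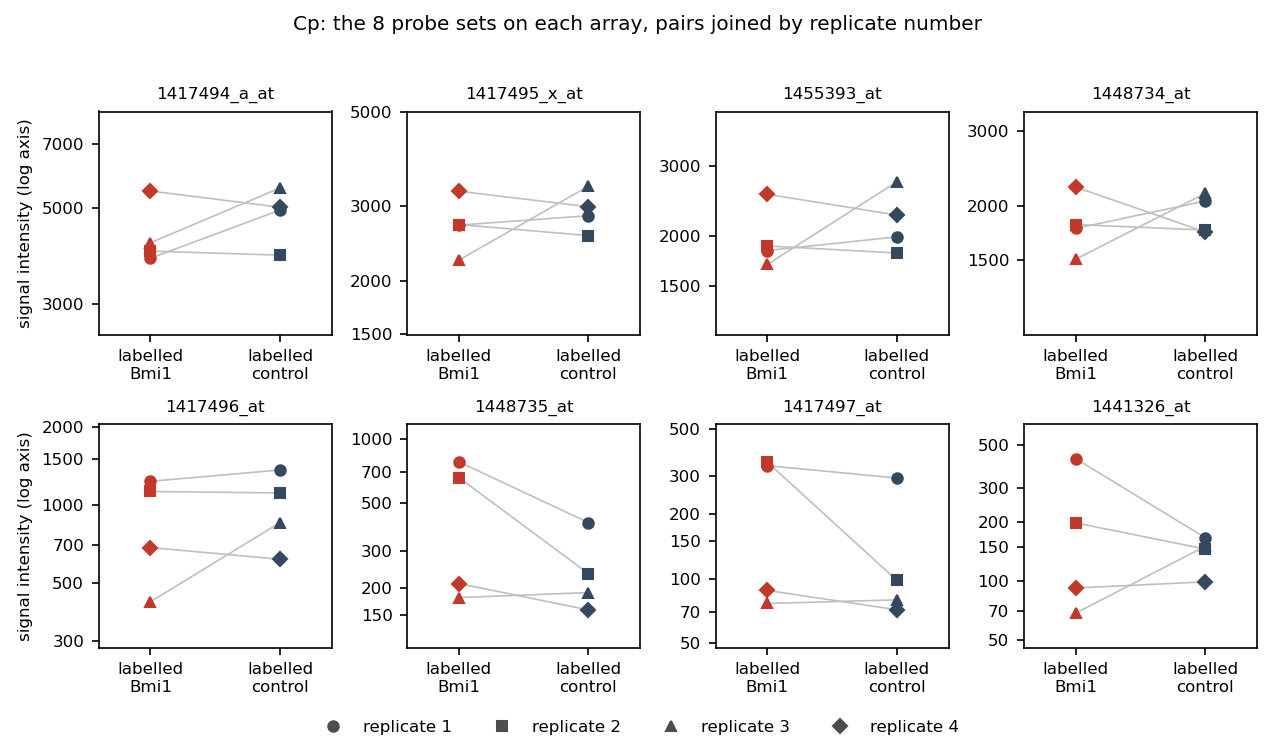
Signal intensity (log axis) of the 8 Cp probe sets on each array, ordered by mean signal, with symbols for the replicate number and grey lines joining arrays of the same number. The 4 brightest probe sets had log2 differences of -0.23 to -0.16, while 3 of the 4 dimmest had differences above 0.

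For none of the 8 genes was a difference in response detected between replicates 1 and 2 and replicates 3 and 4. In limma the interaction of group with this split passed for 0 of the 8 and for 0 of all tested genes (0%), with 0 of the 8 and 301 of all genes at an unadjusted p under 0.05. The difference of Hamp was -0.50 in replicates 1 and 2 and -1.39 in replicates 3 and 4. That of Hfe was -0.02 in replicates 1 and 2 and -0.89 in replicates 3 and 4. In the same order, that of Tfr2 was -0.71 and -0.80, and that of Tfrc was 0.54 and 0.21.

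Other genes of iron and heme handling were examined from a list of 84, of which 79 were on the array with a single symbol and 72 were tested. Without the block, 0 of the 72 passed in limma and 4 had an unadjusted p under 0.05, as did 853 of all 10916 tested genes. With the replicate block 3 fell, Hjv, Abcg2 and Alas1, and 0 rose, where 1.96% of all tested genes fell. Of the 72 genes 49 had a lower and 23 a higher mean in arrays labelled Bmi1, against 5928 and 4988 of all tested genes. Their median log2 difference was -0.11, against -0.03 for all tested genes. With arrays centred on all probe sets these medians were 0.02 and 0.11.

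Hjv encodes hemojuvelin, the coreceptor by which BMPs raise Hamp transcription in hepatocytes. Its brightest probe set was dim and read 12.5, 45.7, 16.8 and 34.1 in Bmi1 1 to 4, against 37.3, 77.5, 71.8 and 144 in control 1 to 4. Only Bmi1 2 lay above the lowest control. All arrays were above background, Bmi1 1 by little (background 9.97). Hjv was lower in 4 of 4 pairs, by 0.80 to 1.99, with a log2 difference of -1.55 (SE 0.25 with the block). With its probe sets averaged the difference was -1.80. At the brightest probe set the limma adjusted p was 0.0197 blocked and 0.267 unblocked. In the blocked model it became 0.0541, 0.0805 and 0.0764 without pair 1, 3 or 4, and 0.0287 without pair 2. It stayed between 0.0088 and 0.0214 over 3 other scalings. Hjv was the only gene of the 22 tested regulators of hepcidin that passed with the block, where 3.33% of all tested genes passed. Of the 22, 13 were lower in mean and 9 higher. Id1 (log2 difference 0.56), Smad6 (0.47) and Bmpr1a (0.18) were higher in 4 of 4 pairs. Il6ra (-0.65), Tmprss6 (-0.61) and Il6st (-0.31) were lower in 4 of 4 pairs. Il6ra was dim, with 1 array labelled Bmi1 at background. Whether BMP signalling differed between the groups was not tested.

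Abcg2, a membrane pump that exports porphyrins among other compounds, read 353, 327, 441 and 356 in Bmi1 1 to 4, against 429, 443, 729.6 and 587 in control 1 to 4. Only control 1 lay below the highest array labelled Bmi1 as deposited. After centring the groups did not overlap, as was the case, lower in arrays labelled Bmi1, for 2.91% of tested genes. The log2 difference was -0.61 (limma adjusted p = 0.0347 blocked and 0.289 unblocked). The call was lost with the block under 3 other scalings (adjusted p 0.0542 to 0.217) and without pair 2, 3 or 4 (0.1097 to 0.152).

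Alas1, the first and rate-setting enzyme of heme synthesis in liver, read 323, 652, 293 and 467 in Bmi1 1 to 4, against 464, 946, 394 and 604 in control 1 to 4. Replicate 2 was highest in both groups and the ranges overlapped, but every pair was lower, by 0.40 to 0.62. The log2 difference was -0.53 (limma adjusted p = 0.0352 blocked and 0.8292 unblocked). The call was lost with the block under 3 other scalings (0.0517 to 0.323) and without any 1 pair (0.0755 to 0.156). Abcg2 and Alas1 were the 2 that passed, with the block, of 20 tested heme genes, where 3.33% of all tested genes passed. Of the 20, 15 were lower in mean and 5 higher, against 5928 and 4988 of all tested genes. Alas2, the erythroid form of the enzyme, was at background on all 8 arrays.

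**Figure D3:**
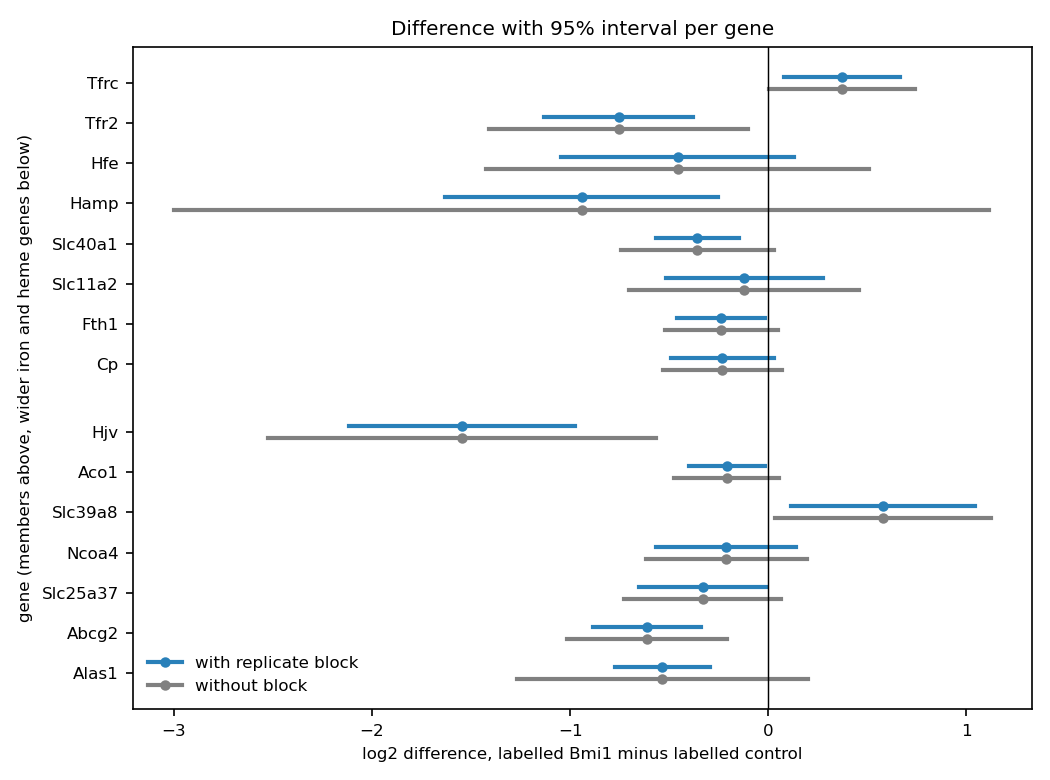
Log2 difference, arrays labelled Bmi1 minus arrays labelled control, with 95% intervals from limma, for the 8 iron genes (upper group) and 7 genes of the wider list (lower group), with the replicate block (blue) and without it (grey). The interval of Hamp narrows most, from -2.998 to 1.11 without the block to -1.63 to -0.25 with it.

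In the remaining groups no gene passed in limma, with or without the block. Of 4 tested genes of the iron regulatory protein system, Aco1, the iron-sensing aconitase, had the smallest unblocked p and read 1509 ± 184 in arrays labelled Bmi1 and 1653 ± 154 in arrays labelled control (SD, n = 4 each), a log2 difference of -0.21 (limma adjusted p = 0.798 unblocked and 0.246 blocked). Of 10 tested reductases and other carriers, the metal importer Slc39a8 had the smallest unblocked p. It read 63.0 ± 6.68 in arrays labelled Bmi1 and 39.9 ± 13.5 in arrays labelled control (SD, n = 4 each). It was higher in 4 of 4 pairs, in pair 4 by only 0.03, with a log2 difference of 0.58 (limma adjusted p = 0.5898 unblocked and 0.183 blocked). With the probe sets of Slc39a8 averaged, the difference was 0.19. The smallest blocked p of the 10 was that of the metalloreductase Steap4, lower in 4 of 4 pairs, with a log2 difference of -1.24 (limma adjusted p = 0.149 blocked and 0.854 unblocked).

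Ncoa4, the receptor that delivers ferritin to lysosomes, differed by -0.21 (limma adjusted p = 0.934), and 3 genes of storage and handling were tested. The mitochondrial iron importer Slc25a37 read 176 ± 20.4 in arrays labelled Bmi1 and 212 ± 34.6 in arrays labelled control (SD, n = 4 each), a log2 difference of -0.33 (limma adjusted p = 0.771 unblocked and 0.261 blocked). Of 13 tested genes of mitochondrial iron use 9 were lower in mean and 4 higher.

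**Figure D4:**
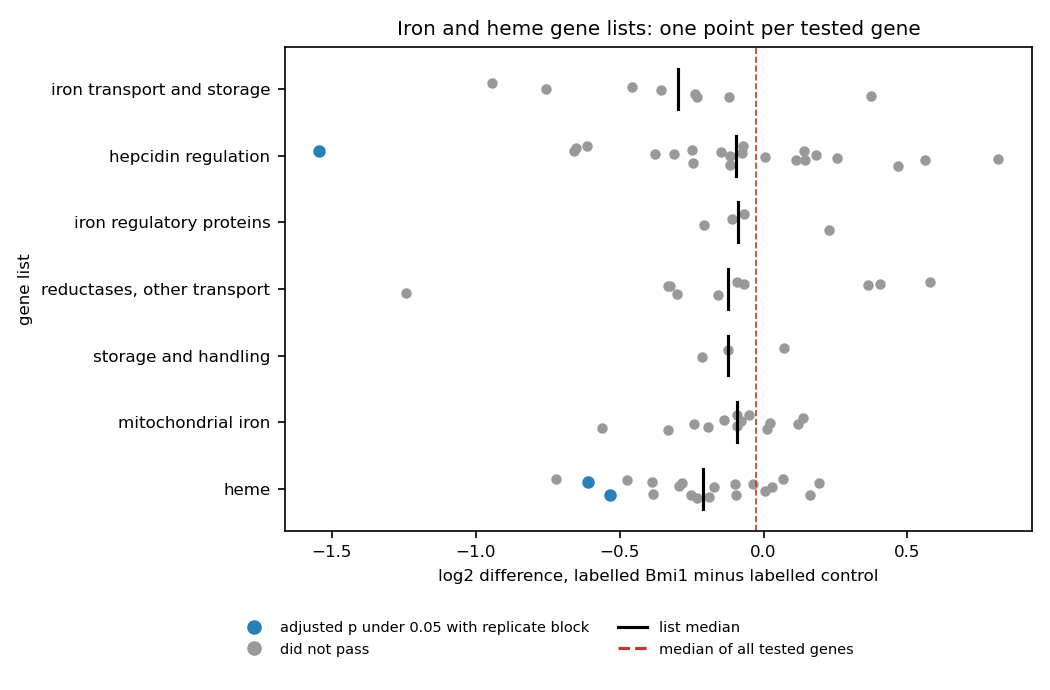
Log2 difference of each tested gene, arrays labelled Bmi1 minus arrays labelled control, by list, with list medians as black bars and the median of all tested genes, -0.03, as a dashed line. The blue points are Hjv (-1.55), Abcg2 (-0.61) and Alas1 (-0.53), the genes that passed with the replicate block.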

How the data were processed

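Per the labels, RNA equal to 10000 cells was amplified in a 2-cycle procedure and hybridised to Affymetrix arrays. The deposited table holds linear intensities, which the authors had scaled: after trimming 2% from each end, the mean was 100.001 on every array. The sources used here do not name the software. Of 45101 probe sets, 34958 had 1 gene symbol and 932 several, by the platform annotation with symbols brought up to date.

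Intensities were transformed to log2(value + 3.78), a constant equal to the median value over 4, which understates the folds of dim genes. Each gene was represented by its probe set of highest mean. Genes whose level reached the 40th percentile were tested (10916), including all 8 measured iron genes, and arrays were centred on the median of the tested genes. Comparisons used limma 3.58.1 (R 4.3.3, intensity trend, two-sided, Benjamini-Hochberg over all tested genes, threshold 0.05), without a block and, as an alternative, with the replicate number as a block. The models were tested on simulated data with no replicate effect. That test cannot tell whether the fit with or without the block suits these arrays. Residuals from group means of same-numbered arrays correlated (r = 0.53, 0.49, 0.501 and 0.68). Within replicates 1 and 2, neighbouring numbers did too (Bmi1 2 with control 1, 0.476, and Bmi1 1 with control 2, 0.120). So did those within replicates 3 and 4 (Bmi1 3 with control 4, 0.355, and Bmi1 4 with control 3, 0.277). Every same-number value was over the cut of 0.1 and was the highest of its array. The neighbouring values also passed the cut, which therefore cannot tell 4 pairs from a split of replicates 1 and 2 from 3 and 4. The numbers were taken as pairs, with the series' 4 experiments as their source. Background was the 95th percentile of 27 Bacillus control probe sets on each array. The number of arrays limits the precision. Promoters came from RefSeq (GRCm38.p6).

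The members and lists were chosen with earlier results of these data known. The genes named were all members, Bmi1, and from each wider list up to 4 genes called with or without the block, or else the gene of smallest p without the block. The genes most like Tfr2 were the 3 with the highest correlation. Markers were described by list. The single markers, Steap4, Id1, Smad6, Bmpr1a, Il6ra, Tmprss6 and Il6st were named after their values were seen.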

Additional observations from a re-analysis of the deposited data

Results flagged for a closer look

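Among 70 groups of 4 arrays examined (members' probe sets and the 7 named genes of the wider list), 4 contained a single array well separated from its group by Dixon's test, where chance flags about 1 in 20. Gaps were taken on centred log2 values and differ from those of the signals printed above. The brighter Tfr2 probe set was highest in control 2, with a gap of 0.909 of the group's range. The dimmer Tfr2 probe set was lowest in control 1 (0.838). The brightest Cp probe set was highest in Bmi1 4 (0.986), and the dimmest Slc11a2 probe set was lowest in Bmi1 2 (0.845).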

How the results depend on the processing

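No iron gene passed in limma under any of 28 other settings per gene, 7 of which, joining the replicate block to another scaling or leaving out a pair, were chosen after seeing the data. The smallest adjusted p was 0.0508, for Tfr2 with the block and without pair 4. The directions of Tfrc, Tfr2, Hamp, Slc40a1, Fth1 and Hfe held in all 28. Slc11a2 turned to 0.013 with arrays centred on all probe sets, with and without the block, and to 0.046 without control 4 (-0.30 to 0.046 over all arrays left out singly), and Cp to 0.0066 with probe sets averaged. The cause was not tested.

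Over all genes limma called 18 (12 higher, 6 lower), and 363 (149 and 214) with the replicate block, 198 with replicates 1 and 2 against 3 and 4 as a block, 28 without centring, 13 (6 and 7) centred on all probe sets, 7 (6 and 1) with quantile normalisation, 30 at 4 times the pseudocount, 5 with every probe set tested and 37 with array weights. Replicates 1 and 2 alone and replicates 3 and 4 alone each called 0, although 824 genes in the first and 1012 in the second had an unadjusted p under 0.05. With the block, no centring gave 409 (222 and 187), centring on all probe sets 477 (280 and 197) and quantile normalisation 344 (162 and 182), so which direction held more genes moved with the scaling. Leaving out 1 array gave 0 to 20, and leaving out a pair with the block 94 to 207 (140 without pair 2). Of the wider iron and heme genes, 0 passed without and 3 with the replicate block. With replicates 1 and 2 against 3 and 4 as the block instead, 0 passed. Under the replicate block with no centring 1 passed (Hjv), centred on all probe sets 3 (Hjv and Steap4 lower, Id1 higher), with quantile normalisation 1 (Hjv), and without 1 pair 0 to 1. The tested genes' median difference was 0.11 with arrays centred on all probe sets, 0.05 with no centring and 0.03 with quantile normalisation, against -0.03 as reported. The calls that the replicate block gave and the fit without a block did not were those of Hjv, Abcg2, Alas1, Bmi1 (0.0248) and the markers Epcam, Egfl7, Reln and Acta2. That block changed no other call on the genes named. With 4 arrays a group, small differences could be missed. The intervals given are for single genes, without adjustment for the number of genes tested. An interval that leaves out 0 can therefore go with no call, as for Tfr2 and Tfrc without the block.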
